A study of Mus musculus with 18 samples.

Results

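Oxidative phosphorylation genes were followed across bone marrow-derived macrophages (BMDMs) of Prep-/- and Prep+/- mice in 3 states. They were taken from the deposited count table by name: nuclear symbols starting with Nduf, Uqcr or Atp5, symbols starting with Cox4 to Cox8, and Sdha, Sdhb, Sdhc, Sdhd and Cyc1. This gave 97 of the 16314 symbols, of which 49 belong to complex I, 4 to complex II, 9 to complex III, 18 to complex IV and 17 to complex V. The rule used names and no measured value. It takes in some genes that are not subunits of the finished complexes. These are 8 assembly factors of complex I (Ndufaf1 to Ndufaf8) and the gene copies Ndufab1-ps, Ndufb4b, Ndufb4c and Ndufs6b. It also takes in tissue isoforms such as Cox4i2 and Cox6a2. Ndufa4 was counted in complex IV, where its protein is found. A filter on low counts left 94 of the 97 genes and 12021 symbols in all for testing. The genes that did not pass were Cox7b2, with 0 to 1 reads per library, Ndufa4l2, with 0 to 2, and Ndufb4c, with 0 to 11. Since the filter worked on counts in any group, the 94 genes are those with reads and not all 97.

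Oxidative phosphorylation takes electrons from NADH at complex I and from succinate at complex II, and passes them through coenzyme Q to complex III, by cytochrome c to complex IV and on to oxygen. Complexes I, III and IV pump protons across the inner mitochondrial membrane, and complex V, the ATP synthase, uses their return to make ATP. Each of these 4 proton-handling complexes joins nuclear-encoded subunits to some encoded in mitochondrial DNA, while complex II, succinate dehydrogenase, is wholly nuclear-encoded. Macrophages are known to change their use of this pathway with stimulation: cells given lipopolysaccharide lean on glycolysis, and cells given IL-4 keep or raise respiration. Transcripts of the mitochondrial genome were not analysed here, so what follows covers the nuclear-encoded side.

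The 18 libraries form 6 groups of 3 biological replicates. Bone marrow from the femora of Prep-/- mice, which lack prolyl endopeptidase through a global knockout on the C57BL6/J background, or of their heterozygous Prep+/- littermates, was grown for 7 days in RPMI with M-CSF at 50 ng/ml. The controls therefore also carry 1 knockout allele, and no wild-type group is part of the design. M0 cells received no further stimulus, M1 cells received LPS at 50 ng/ml, and M2 cells received IL-4 and IL-13 at 20 ng/ml each, both for 24 h. The knockout touched every cell of the animal, so its effect in the macrophage and in the precursors that gave rise to it cannot be told apart. Prep itself was at 26.02 to 42.5 CPM (counts per 1e6 counts, on library sizes scaled by TMM) in the 9 Prep+/- libraries and at 1.48 to 3.22 CPM in the 9 Prep-/- libraries, which did not overlap.

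Each library held 19068237 to 22598279 counts. Summed levels of 6 macrophage markers (Adgre1, Csf1r, Cd68, Itgam, Mertk and Lyz2) lay between 9936 and 47352 CPM. Those of 6 neutrophil and granulocyte precursor genes lay between 6.06 and 66.8 CPM, those of stromal genes between 0.0839 and 20.5 CPM, and those of erythroid, B cell, T cell and mast cell genes at or below 0.168 CPM. The macrophage sum differed between genotypes, with 18643 to 22089 CPM in Prep+/- M0 against 29854 to 47352 CPM in Prep-/- M0, 43070 to 44552 against 28318 to 35021 CPM in M1, and 9936 to 12141 against 13795 to 19485 CPM in M2. The neutrophil sum was 7.45 to 9.55 CPM in Prep+/- M0 against 13.6 to 27.9 CPM in Prep-/- M0, and 37.4 to 66.8 against 20.2 to 25.9 CPM in M1. This sum is mostly S100a8, at 5.13 to 65.4 CPM, while Mpo, Elane, Prtn3, Ctsg and Ly6g were each at or below 1.23 CPM. The neutrophil sum therefore does not measure neutrophils as such. Lyz2 was likewise the highest macrophage marker, at 6501 to 39295 CPM. Dendritic cell genes summed to at most 2.59 CPM, with 0.0802 to 0.365 CPM in Prep+/- M0 against 0.877 to 1.09 CPM in Prep-/- M0. The part of these differences in the results was not tested. In these bulk samples, fewer cells of a kind and less RNA per cell cannot be told apart.

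Nuclear respiratory genes share few promoter elements, the best known being those for the factors NRF-1, the ETS factor GABP, YY1 and the estrogen-related receptors (ERR). RefSeq promoter windows of 300 bases (GRCm38.p6, 250 before the start of transcription to 50 after) were matched for 77 of the 97 genes. Both strands were searched for the letters GCGCATGCG (NRF-1), CCGGAAG (ETS), AAGATGGCG (YY1) and TCAAGGTCA (ERR), and the NRF-1 letters overlap themselves on the opposite strand. NRF-1 letters were in 12.99% of the 77 windows and in 3.13% of the 12821 windows of genes in the count table, ETS letters in 23.4% and 15.5%, YY1 letters in 9.09% and 2.59%, and ERR letters in 2.60% and 0.281%. A match describes the letters only, and no match says nothing of the factor. The 250 bases before the start are shown for 4 genes whose levels recur below: Atp5b (chr10:128083057-128083306, plus strand), which fell in Prep-/- M0 and holds none of the 4 motifs, Ndufa8 (chr2:36049339-36049588, minus strand) and Ndufb6 (chr4:40279422-40279671, minus strand), which fell in Prep-/- M1, and Ndufaf4 (chr4:24897833-24898082, plus strand), which rose in M1. Each is written 5′ to 3′ on the gene's strand, and capitals mark the NRF-1 letters in Ndufa8 and Ndufaf4 and the ETS letters in Ndufb6.
Atp5b: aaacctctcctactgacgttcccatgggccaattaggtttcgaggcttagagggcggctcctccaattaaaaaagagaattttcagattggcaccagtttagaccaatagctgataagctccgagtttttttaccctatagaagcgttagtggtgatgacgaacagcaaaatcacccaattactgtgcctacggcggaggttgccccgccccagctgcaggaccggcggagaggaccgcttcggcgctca
Ndufa8: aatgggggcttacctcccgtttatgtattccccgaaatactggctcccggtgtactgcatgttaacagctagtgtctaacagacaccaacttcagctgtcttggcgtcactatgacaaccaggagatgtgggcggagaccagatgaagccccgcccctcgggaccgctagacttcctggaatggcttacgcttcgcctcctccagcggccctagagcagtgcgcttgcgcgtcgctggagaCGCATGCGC
Ndufb6: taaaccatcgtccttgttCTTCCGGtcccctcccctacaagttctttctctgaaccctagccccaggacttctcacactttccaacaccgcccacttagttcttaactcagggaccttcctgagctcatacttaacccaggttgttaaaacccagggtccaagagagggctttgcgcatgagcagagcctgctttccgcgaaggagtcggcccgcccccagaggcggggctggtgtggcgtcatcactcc
Ndufaf4: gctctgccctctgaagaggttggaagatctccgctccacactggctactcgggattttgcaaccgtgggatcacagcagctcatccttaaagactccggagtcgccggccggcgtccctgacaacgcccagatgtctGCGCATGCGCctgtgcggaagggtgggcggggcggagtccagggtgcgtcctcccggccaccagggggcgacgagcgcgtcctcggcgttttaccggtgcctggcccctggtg

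One library stood apart for the genes described here. The oxidative phosphorylation genes together took 0.855 to 1.59% of all counts, and their summed level ran from 9038 CPM in Prep-/- M0 replicate 2 to 15016 CPM in Prep-/- M0 replicate 3, so both ends of the range lay in the same group. Replicate 1 of that group stood at 9502 CPM. Prep-/- M0 replicate 3 was also the library with the steepest tilt towards short transcripts, described next. The counts of the comparisons that include it are given with and without it. It was set apart by its level of these same genes, so leaving it out lowers their summed level in Prep-/- M0. Counts without it are therefore no independent support. Over tested genes in general, pairs of replicates were compared by a chi-square per degree of freedom. It was 113 and 120 for Prep-/- M0 replicate 3 against replicates 1 and 2, and 35.2 between those. Prep-/- M2 replicate 3 differed as much from its group, at 111 and 112, against 12.1 between replicates 1 and 2.

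The oxidative phosphorylation genes are short. Their median annotated transcript had 871.5 bases against 2916 over all symbols with a length, and 52 of the 94 genes with a length were under 1000 bases, against 1355 of 15735 symbols. Each gene's log2 CPM was therefore set against its own mean over the 18 libraries, and the medians of these deviations were compared between short transcripts and the oxidative phosphorylation genes. Among genes outside the pathway under 1000 bases, the median deviation was 0.37 in Prep-/- M0 replicate 3, 0.20 in Prep+/- M1 replicate 2, -0.16 in Prep-/- M0 replicate 2 and -0.22 in Prep+/- M0 replicate 3. The medians of the 94 oxidative phosphorylation genes in the same 4 libraries were 0.33, 0.39, -0.48 and -0.30, the same sign each time. The signs were the same in 15 of the 18 libraries and opposite in 3 M2 libraries, with -0.024 and 0.11 in Prep+/- replicate 2, -0.032 and 0.11 in Prep-/- replicate 2, and -0.037 and 0.0040 in Prep-/- replicate 3. The slope of the deviation on log2 length ran from -0.17 in Prep-/- M0 replicate 3 to 0.13 in Prep+/- M0 replicate 3.

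**Figure D1:**
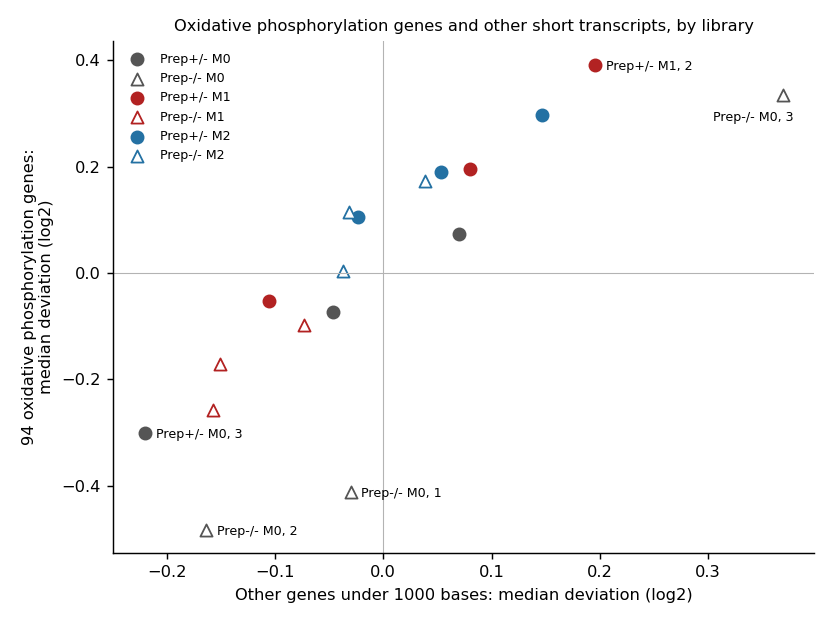
Each point is 1 of the 18 libraries, with the median log2 deviation from the gene means of other genes under 1000 bases on the x axis and that of the 94 oxidative phosphorylation genes on the y axis; filled circles are Prep+/-, open triangles Prep-/-. Most libraries lie along a rising band, Prep-/- M0 replicate 3 at its upper right (0.37 and 0.33), while Prep-/- M0 replicates 1 and 2 lie below it (-0.41 and -0.48 on the y axis).

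A smooth curve of deviation on length was then fitted in each library over all genes and subtracted. Of the 94 tested genes 91 have a length, and Atp5md, Atp5mpl and Atp5o stand uncorrected. After this correction the median deviation of the 94 tested genes was -0.38 and -0.34 in Prep-/- M0 replicates 1 and 2 and 0.035 in replicate 3. In Prep+/- M0 it was 0.00012, -0.063 and -0.14, so replicates 1 and 2 of Prep-/- M0 lay below every Prep+/- M0 library and replicate 3 above. In the M2 libraries of both genotypes it was between 0.018 and 0.15. Values are given below as the counts stand, with the length-corrected value beside them where the call or the size depends on it.

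Genes of the ATP synthase made up the largest sum of the 5 complexes in every library. Their summed level was 3925 ± 342 CPM (SD, n = 3) in Prep+/- M0 and 3382 ± 810 in Prep-/- M0, or 2914 CPM without replicate 3. Single libraries stood at 2906 and 2921 CPM in Prep-/- M0 replicates 1 and 2 and at 4317 CPM in replicate 3, against 3556 to 4232 CPM in Prep+/- M0. For complex I the Prep-/- M0 libraries stood at 2637, 2372 and 4315 CPM and for complex IV at 2291, 2134 and 3956 CPM, and in both complexes replicate 3 was the highest of all 18 libraries. Complex II was the flattest, at 710 to 1114 CPM. In M2 the sum for complex V was 4848 to 5150 CPM in Prep+/- and 4423 to 4930 CPM in Prep-/-, which overlap, and that for complex I was 3385 to 3854 CPM and 3083 to 3485 CPM, which also overlap.

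**Figure D2:**
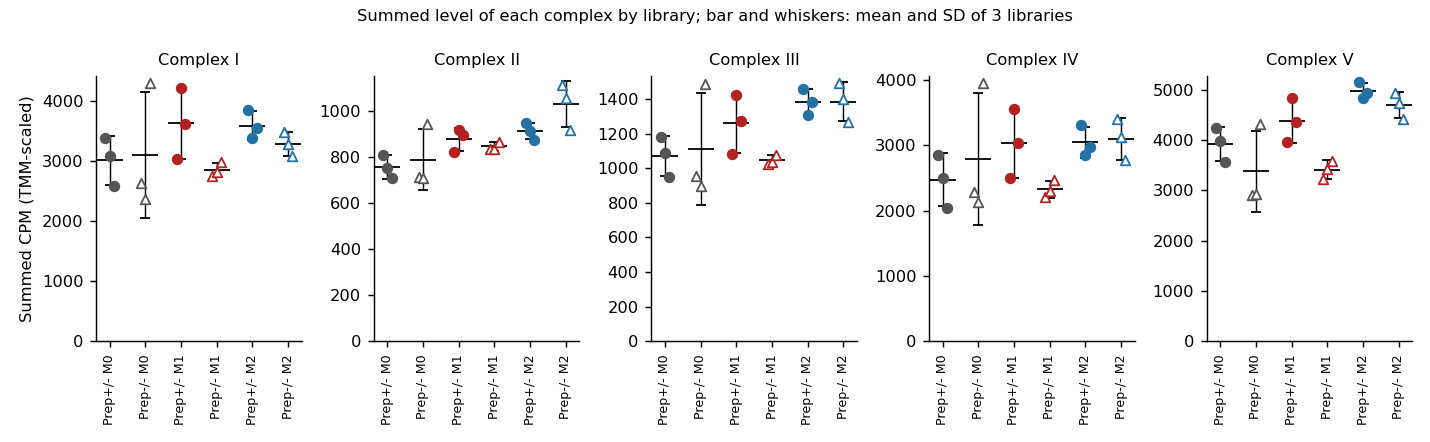
Summed CPM of the genes of each complex in each of the 18 libraries, by group on the x axis, with the mean and SD of the 3 libraries as bar and whiskers; filled circles are Prep+/-, open triangles Prep-/-. In Prep-/- M0, 1 library lies far above the other two in each panel (4315 against 2372 and 2637 CPM for complex I), and the M1 libraries of Prep-/- lie close together.

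Levels among members spanned a wide range. Scaled by coding length, the highest mean level over all libraries was that of Cox4i1, a common nuclear-encoded subunit of complex IV, at 1222 CPM per kb. Its tissue isoform Cox4i2 stood at 0.672 CPM per kb. Cox6b1, Atp5e and Cox8a followed Cox4i1, at 1186, 1130 and 1042 CPM per kb. The muscle-type isoform Cox6a2 stood at 8.59 CPM per kb against 797 for the common form Cox6a1. Of the 3 genes for the same c-ring protein of the ATP synthase, Atp5g3 was at 562, Atp5g2 at 448 and Atp5g1 at 208 CPM per kb.

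Prep-/- and Prep+/- macrophages were first compared in M0, which asks what loss of prolyl endopeptidase does to unstimulated cells. Of the 94 oxidative phosphorylation genes, 12 were lower and 5 higher in Prep-/- at an adjusted p under 0.05, where 24.2% of all tested genes were called lower and 24.3% higher. So 77 were not called, and the share called in the pathway was below that of all genes. The median log2 fold change was -0.056 against 0.019 over all genes. With a fold change over 1.5 also required, 11 remained, 8 lower and 3 higher, where 32.6% of all tested genes passed. By complex, the count was 7 lower and 2 higher of 48 in complex I, 1 higher of 4 in complex II, 1 lower and 1 higher of 9 in complex III, 1 lower and 1 higher of 16 in complex IV, and 3 lower of 17 in complex V.

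These counts depended on the libraries used. In a fit of the 6 M0 libraries alone, 6 were lower and 2 higher, where 21.2% and 19.2% of all tested genes were. Without Prep-/- M0 replicate 3, 43 of the 94 genes were lower and 2 higher, the median log2 fold change was -0.39, and 25.5% of all tested genes were lower. The 12 genes lower with every library were all among the 43. With the length correction on all 18 libraries 31 were lower and 7 higher, where 25.6% and 26.5% of all tested genes were, the first 12 again among them, and the median was -0.14. With both, 52 were lower and 5 higher, where 26.4% and 26.9% of all tested genes were, at a median of -0.35 against 0.018 over all genes, and complex I had 27 of 48 lower, complex V 11 of 17, complex IV 9 of 16, complex III 4 of 9 and complex II 1 of 4.

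**Figure D3:**
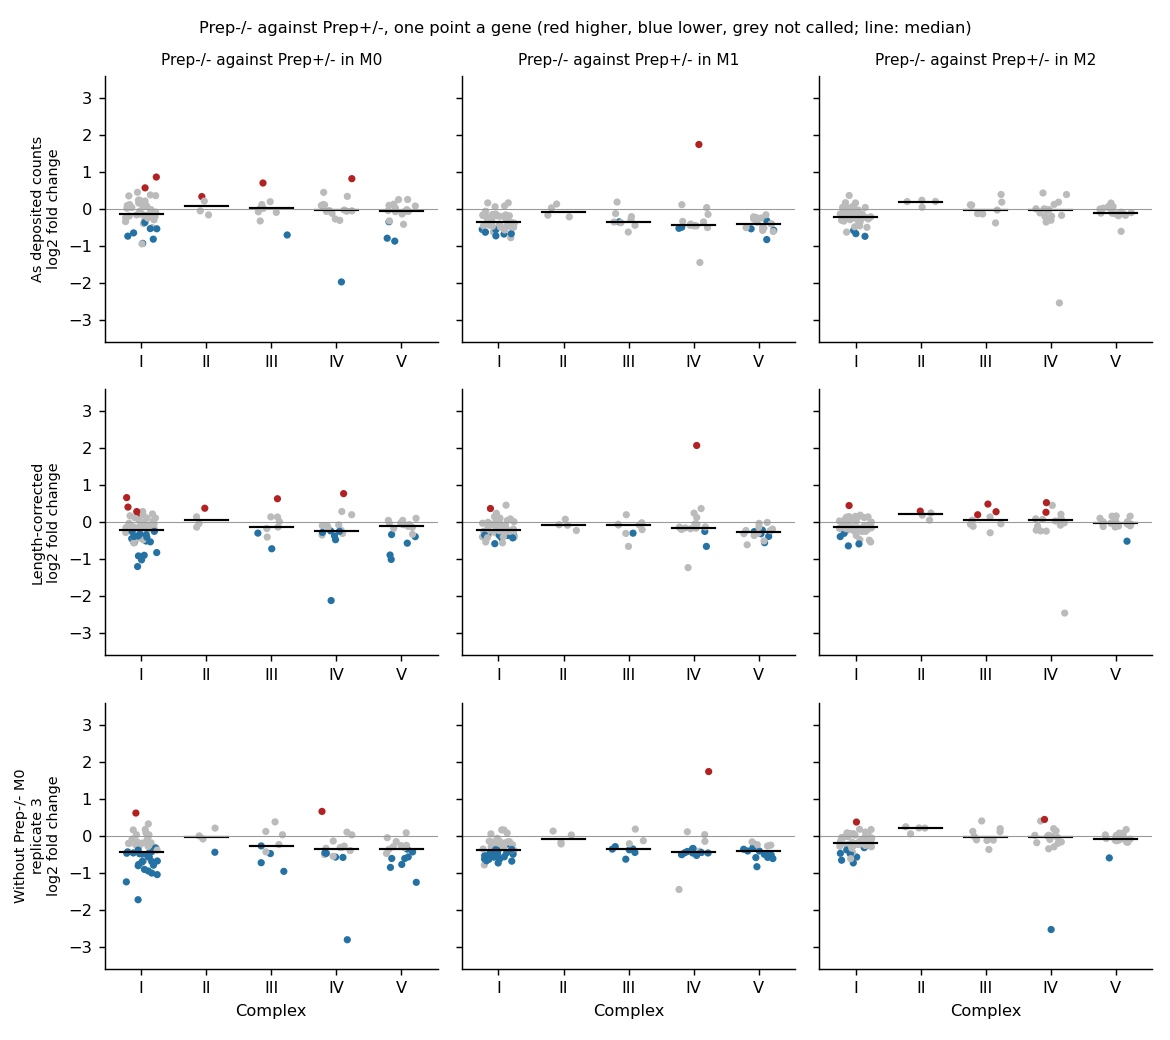
Log2 fold change of Prep-/- against Prep+/- for each gene (1 point) by complex (x axis) in M0, M1 and M2 (columns), for the counts as deposited, the length-corrected fit and the fit without Prep-/- M0 replicate 3 (rows); red is called higher, blue lower, grey not called, and the line is the median. In M0 the blue points grow from 12 in the top row to 31 and 43, and in M1 from 13 to 16 and 52.

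Of the genes named here, Atp5b, Cyc1 and Ndufa12 were called lower in M0 under every alternative tried, leaving out each library included. Ndufa6 and Cox7a2l, described below, were called higher in M0 under every alternative as well. Atp5b encodes the catalytic beta subunit of the ATP synthase. It stood at 712, 758 and 769 CPM in Prep+/- M0 and at 392, 437 and 396 CPM in Prep-/- M0. The groups did not overlap and replicate 3 lay between the other two, and the log2 fold change was -0.87 ± 0.088 (SE, adjusted p = 1.94e-06), -0.88 after length correction and -0.86 without replicate 3. Atp5a1, the alpha subunit that alternates with it in the same ring, was at 717, 711 and 700 CPM against 524, 584 and 565 CPM. These groups did not overlap either, with a change of -0.35 ± 0.088 (adjusted p = 0.00393 with edgeR, and 0.0548 in a fit of the 6 M0 libraries alone). Atp5g1 was at 102, 92.9 and 76.7 CPM in Prep+/- and 41.1, 35.0 and 80.8 CPM in Prep-/-, which overlap through replicate 3 (log2 change -0.79 ± 0.23, adjusted p = 0.0107). Its call was lost without Prep-/- M0 replicate 1 (-0.64, adjusted p = 0.0564) or replicate 2 (-0.56, adjusted p = 0.0645), and in a fit of the 6 M0 libraries alone (adjusted p = 0.0764). The c-ring genes Atp5g2 and Atp5g3 were not called, at 0.26 and -0.42. Reads of Atp5g1 and Atp5g2 are less certain, since 5 annotated near-identical copies exist for each. At least 1 such copy is annotated for 24 of the genes taken by the name rule, and none for Atp5g3.

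In complex III the change went both ways. Cyc1, the cytochrome c1 subunit that hands electrons to cytochrome c, was at 78.7, 84.8 and 75.3 CPM in Prep+/- M0 and at 49.0, 47.6 and 50.0 CPM in Prep-/- M0. All 3 Prep-/- libraries lay in a narrow band below, and the log2 fold change was -0.70 ± 0.086 (adjusted p = 1.01e-05), -0.72 after length correction. Uqcrh, the hinge protein beside cytochrome c1, was higher at 218, 169 and 336 CPM against 175, 154 and 116 CPM. Here the groups overlapped and replicate 3 was the highest library (0.70 ± 0.21, adjusted p = 0.0112). Without replicate 3 the change of Uqcrh was 0.37 with an adjusted p of 0.102, and without Prep+/- M0 replicate 3 it was 0.54 with an adjusted p of 0.0734, while after length correction it was 0.64 with an adjusted p of 0.0020. Uqcrfs1, the Rieske iron-sulfur subunit, was not called, at 0.20 ± 0.13.

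Of the 12 lower genes, 7 were in complex I, which holds 48 of the 94 tested genes, and 4 of these 7 are assembly factors. Ndufa12, an accessory subunit, was at 54.8, 59.1 and 51.5 CPM in Prep+/- M0 and at 20.96, 25.7 and 40.1 CPM in Prep-/- M0. No library overlapped, though replicate 3 was the closest (log2 change -0.93 ± 0.20, adjusted p = 0.00138). Ndufb6 was at 51.7, 53.6 and 42.6 CPM against 25.4, 25.9 and 43.2 CPM (-0.65 ± 0.19, adjusted p = 0.0116), and after length correction its change was -0.82. Its 2 low libraries are replicates 1 and 2, and the call was lost without either (adjusted p = 0.0623 and 0.0675) and in the fit of the 6 M0 libraries alone (0.0573). Ndufs1, the largest core subunit, fell less, from 76.4, 84.5 and 86.0 to 63.8, 67.5 and 60.3 CPM (-0.37 ± 0.090, adjusted p = 0.00329). The core flavoprotein gene Ndufv1, which accepts electrons from NADH, was not called, at 0.069 ± 0.13.

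Assembly factors of complex I build the complex and leave it. The name rule took in 8 of them, Ndufaf1 to Ndufaf8, and all 8 were tested. Other assembly factors are read from a wider list below. Of the 8, 4 were called lower and none higher with edgeR, with 0 higher at an unadjusted p under 0.05 and 0 by DESeq2, at a median of -0.52, which stayed at -0.49 after length correction. Over all tested genes 24.2% were lower. Without replicate 3, 6 of the 8 and 25.5% of all tested genes were lower. Ndufaf7, an arginine methyltransferase that modifies a core subunit, stood at 20.1, 20.99 and 18.4 CPM in Prep+/- and 14.3, 14.4 and 12.3 CPM in Prep-/- (-0.54 ± 0.12, adjusted p = 0.00158). The groups did not overlap. Ndufaf2 (-0.74 ± 0.23, adjusted p = 0.0150) and Ndufaf6 (-0.82 ± 0.21, adjusted p = 0.00423) were also lower, at 5.64 to 10.4 and 1.88 to 3.51 CPM in Prep-/- against 9.98 to 15.5 and 4.85 to 5.24 CPM in Prep+/-. The Ndufaf2 call was lost without Prep+/- M0 replicate 2 (adjusted p = 0.0837) or Prep-/- M0 replicate 1 (0.0764) or 2 (0.0663), and in the fit of the 6 M0 libraries alone (0.0672). Ndufaf5 was at -0.53 ± 0.18 (adjusted p = 0.0240).

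Against these, Ndufa6 of complex I and Cox7a2l of the complex IV group rose in Prep-/- M0. Ndufa6, an accessory subunit of the LYR family, was at 70.2, 63.7 and 52.6 CPM in Prep+/- and at 109, 82.7 and 148 CPM in Prep-/-. Every Prep-/- library lay above every Prep+/- library, and the log2 change was 0.86 ± 0.17 (adjusted p = 0.00050), 0.67 after length correction and 0.61 without replicate 3. Cox7a2l was at 230, 194 and 161 against 338, 282 and 412 CPM. Again the groups did not overlap, at 0.82 ± 0.16 (adjusted p = 0.00060), 0.78 after length correction and 0.66 without replicate 3. Both genes overlap another annotated gene on the opposite strand (Smdt1 for Ndufa6, Eml4 for Cox7a2l), and the strand setting of the counting is not given in the sources used here. The same limit holds for 61 of the genes taken by the name rule, and 17 overlap a gene on the same strand. Of the genes lower in M0, Atp5a1, Atp5b, Atp5g1, Ndufb6, Ndufs1, Ndufaf2 and Ndufaf7 have an opposite-strand overlap. Cyc1, Cox4i2, Ndufa12, Ndufaf5 and Ndufaf6 have none. Ndufaf3, named below, also has one. Ndufc2 (0.57) and Sdhb, the iron-sulfur subunit of complex II (0.34), were called higher with every library, but were at 0.32 and 0.20 without replicate 3, with adjusted p of 0.138 and 0.158. Sdha, the flavoprotein of complex II, was at -0.051 ± 0.098 and was not called.

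In complex IV the common subunits were not called in M0. Cox4i1 was at 0.45 ± 0.23, Cox5a at 0.11 ± 0.24, Cox6a1 at -0.12 ± 0.23, Cox6b1 at 0.059 ± 0.19, Cox7a2 at -0.27 ± 0.19 and Cox8a at 0.093 ± 0.15. The 1 lower gene was the rare isoform Cox4i2, with 23, 32 and 14 reads in Prep+/- M0 and 0, 6 and 10 reads in Prep-/- M0 (log2 change -1.97 ± 0.63, adjusted p = 0.0160). These counts are few, and without Prep+/- M0 replicate 2 the call was lost (adjusted p = 0.0669). Ndufa4 was at -0.044 ± 0.22.

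**Figure D4:**
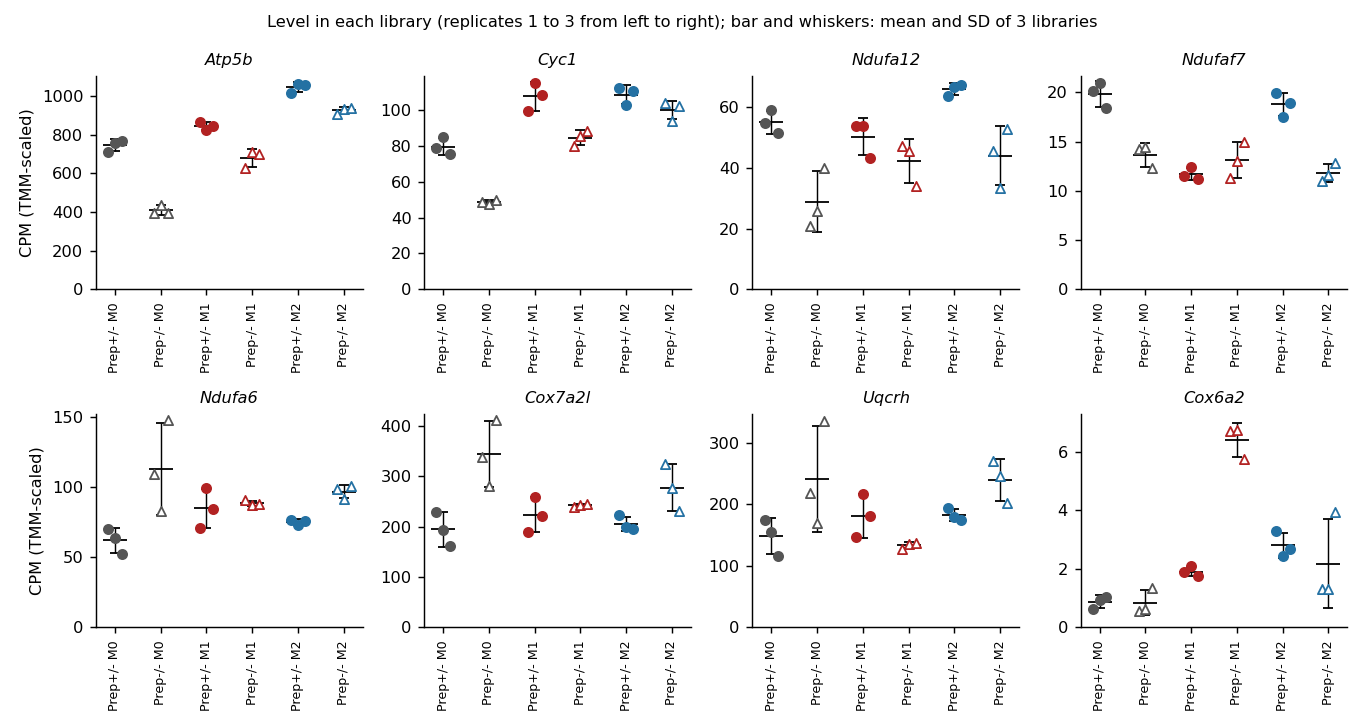
CPM of 8 genes in each library by group, replicates 1 to 3 from left to right, with the mean and SD as bar and whiskers; filled circles are Prep+/-, open triangles Prep-/-. Atp5b and Cyc1 form tight low clusters in Prep-/- M0 (392 to 437 and 47.6 to 50.0 CPM), while in Ndufa12, Ndufa6 and Uqcrh replicate 3 of that group is the highest of the 3.

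In M1, after LPS, 13 genes were lower and 1 higher in Prep-/-, where 16.6% of all tested genes were lower and 19.7% higher. The log2 fold change was negative for 84 of the 94, at a median of -0.36 against 0.036 over all genes. By complex, 6 of 48 were lower in complex I, 1 of 9 in complex III, 2 of 16 in complex IV and 4 of 17 in complex V. A fold change over 1.5 was passed by 6, where 22.5% of all tested genes passed. Genes of the cytosolic and mitochondrial ribosomes had medians of -0.41 and -0.37 in the same comparison.

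The M1 count depended on which libraries shaped the estimate. Without Prep+/- M1 replicate 2, the M1 library highest for these genes, 2 of the 13 were still called and the median was -0.27. Over all tested genes 1310 were then lower. Without Prep-/- M1 replicate 1, 2 or 3 the count lower was 1, 5 and 8, and without Prep+/- M1 replicate 1 or 3 it was 27 and 4. The share of all tested genes in those fits is not given here. In a fit of the 6 M1 libraries alone 53 were lower, where 23.6% of all tested genes were. Without Prep-/- M0 replicate 3, which is no M1 library but enters the shared filter, scaling and estimate of the spread, 52 were lower, where 20.4% of all tested genes were. The length correction left 16 lower and 2 higher, where 19.4% and 18.7% of all tested genes were, and moved the median to -0.19. Members under 1000 bases had a median of -0.46 and those of 1000 bases or more -0.23, while other genes in those classes were at -0.26 and 0.055.

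Among the genes called in M1, Atp5g1 stood at 91.4, 130 and 114 CPM in Prep+/- and at 53.1, 66.2 and 69.8 CPM in Prep-/-. The groups did not overlap (log2 change -0.83 ± 0.23, adjusted p = 0.0123), and after length correction the change was -0.55. Atp5b was at 867, 824 and 844 against 624, 709 and 700 CPM, also apart (-0.32 ± 0.087, adjusted p = 0.0104). Cyc1 had the smallest p in complex III, at 99.4, 115 and 109 against 80.03, 85.8 and 88.2 CPM (-0.35 ± 0.085, adjusted p = 0.0055). In complex I, Ndufa8, whose promoter window is printed above, was at 101, 127 and 109 against 71.5, 78.6 and 78.4 CPM (-0.56 ± 0.15, adjusted p = 0.0100). Ndufb7 (-0.73), Ndufaf2 (-0.68), Ndufb2 (-0.67) and Ndufb6 (-0.63) also passed the fold of 1.5, with adjusted p between 0.0191 and 0.0340, and after length correction stood at -0.42, -0.43, -0.35 and -0.36. The smallest p among lower genes of complex IV was that of Cox5b (-0.52 ± 0.17, adjusted p = 0.0241), -0.25 after length correction. Of the genes named in M1, Cyc1 and Cox6a2 were called without any 1 of the 18 libraries, and the lower genes other than Cyc1 lost the call without Prep-/- M1 replicate 1. The genes Cox4i1 (-0.41), Cox5a (-0.42), Uqcrfs1 (-0.21), Ndufv1 (-0.18) and Sdha (0.13) were not called.

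The 1 higher gene in M1 was Cox6a2, the isoform of heart and skeletal muscle. It was at 1.88, 2.08 and 1.76 CPM in Prep+/- M1 and at 6.70, 6.76 and 5.75 CPM in Prep-/- M1. The groups were wide apart at a low level, with a log2 change of 1.74 ± 0.37 (adjusted p = 0.00223) and 2.08 after length correction. Its common counterpart Cox6a1 was at -0.45 ± 0.23 and was not called. Cox6a2 overlaps Itgad on the opposite strand, and reads of the 2 genes cannot be told apart without the strand setting.

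In M2, after IL-4 and IL-13, 3 genes were lower and none higher in Prep-/- with edgeR, where 13.1% of all tested genes were lower and 11.6% higher. At an unadjusted p under 0.05, 3 genes were higher, and DESeq2 called 2 higher. The 3 lower genes are in complex I. Ndufaf7 was at 19.9, 17.5 and 18.9 against 10.97, 11.6 and 12.8 CPM (-0.67 ± 0.12, adjusted p = 0.00076), Ndufaf2 at 15.1, 10.3 and 13.4 against 7.60, 7.40 and 8.24 CPM (-0.74 ± 0.23, adjusted p = 0.0280), and Ndufa12 at 63.7, 66.8 and 67.4 against 45.7, 33.5 and 52.9 CPM (-0.58 ± 0.20, adjusted p = 0.0449). None of the 3 pairs of groups overlapped. The Ndufaf2 call was lost without Prep+/- M2 replicate 1 (adjusted p = 0.129) or 3 (0.0849) and without Prep-/- M2 replicate 1 (0.0886) or 2 (0.0868). The Ndufa12 call was lost under the length correction, though not when that used coding length. It was also lost with the replicate block over all 18 libraries and without Prep+/- M1 replicate 2. Past a fold of 1.5 were 2 genes, where 16.2% of all tested genes passed. The median was -0.11 against 0.027 over all genes, and the same-numbered libraries moved together in this comparison. With the replicate as a block in a fit of these 6 libraries alone, 12 were lower and 3 higher. In the same libraries without the block 10 were lower and 1 higher. Over all tested genes 1656 were lower and 1632 higher with the block, and 1332 and 1181 without it. The length correction gave 5 lower and 7 higher, against 1665 and 1838 over all tested genes. Ndufa6 was then at 0.45, Cox7a2l at 0.53 and Uqcrh at 0.49, the direction they had in M0. Atp5b, Cyc1 and Ndufs1, lower in M0, were not called in M2, at -0.17, -0.12 and 0.040.

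The difference of the Prep-/- effect between states was tested directly. Between M1 and M0, 5 genes were called positive, where 13.7% of all tested genes were, and 3 negative, where 10.9% were. Atp5b (0.55 ± 0.12, adjusted p = 0.00470) and Cyc1 (0.36 ± 0.12, adjusted p = 0.0416) had a less negative effect in M1 than in M0, and that of Ndufs1 went from -0.37 to 0.080, where it was not called (difference 0.45 ± 0.13, adjusted p = 0.0188). Ndufa6 (-0.80 ± 0.23, adjusted p = 0.0202) and Cox7a2l (-0.70 ± 0.23, adjusted p = 0.0336) had a less positive effect in M1, and that of Uqcrh went from 0.70 to -0.44, where it was not called (difference -1.14 ± 0.30, adjusted p = 0.0108). Without Prep-/- M0 replicate 3 the differences were -0.56 for Ndufa6 (adjusted p = 0.0438), -0.55 for Cox7a2l (adjusted p = 0.0858) and -0.83 for Uqcrh (adjusted p = 0.0233). Between M2 and M0, 2 genes were called positive and none negative with edgeR, where 5.16% and 4.48% of all tested genes were. At an unadjusted p under 0.05, 1 gene was negative, and DESeq2 called none negative. They were Atp5b (0.70 ± 0.12, adjusted p = 0.00334) and Cyc1 (0.59 ± 0.12, adjusted p = 0.00772). The 2 differences share the M0 libraries of both genotypes.

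Stimulation was compared with M0 within each genotype. The M0 libraries are shared by the M1 and M2 comparisons of a genotype. In Prep+/-, M1 raised 21 genes and lowered 4, where 24.8% of all tested genes rose and 27.3% fell, and the median was 0.28 against -0.033 over all genes. Past a fold of 1.5 were 12, where 37.7% of all tested genes passed. In Prep-/-, M1 raised 13 and lowered 12, where 29.3% rose and 27.8% fell, at a median of -0.058. Past the fold were 15, where 42% of all tested genes passed.

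Among genes with a mean of at least 5 CPM in the libraries compared, the largest rises in M1 were those of assembly factors in both genotypes. Ndufaf3 went from 21.3, 21.7 and 16.2 to 34.0, 43.9 and 43.0 CPM in Prep+/- (1.03 ± 0.17, adjusted p = 6.65e-05) and from 16.6, 12.9 and 20.8 to 37.4, 33.4 and 38.9 CPM in Prep-/- (1.13 ± 0.17, adjusted p = 2.71e-05). Ndufaf4, which holds the NRF-1 letters printed above, rose by a log2 change of 0.98 ± 0.20 in Prep+/- and 0.99 ± 0.20 in Prep-/-. In no case did the groups overlap. Ndufaf7 moved the other way in Prep+/-, from 18.4 to 20.99 CPM down to 11.2 to 12.4 CPM (-0.76 ± 0.12, adjusted p = 5.79e-05), as did Ndufs8, a core iron-sulfur subunit (-0.67 ± 0.17, adjusted p = 0.0030). In Prep-/- the largest falls at or above that level were those of Ndufb11 (-1.02 ± 0.22, adjusted p = 0.00088) and Atp5g2 (-0.94 ± 0.19, adjusted p = 0.00050), whose M0 replicate 3 stood at 207 and 331 CPM against 102 to 115 and 183 to 209 CPM in replicates 1 and 2. Without replicate 3 their changes were -0.66 (adjusted p = 0.00398) and -0.67 (adjusted p = 0.00203).

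Without Prep-/- M0 replicate 3 the M1 comparison in Prep-/- gave 31 higher and 5 lower, at a median of 0.21. Over all tested genes 3290 were then higher and 3399 lower. With the length correction 35 were higher and 11 lower at 0.15, against 3648 and 3538 over all tested genes. In Prep+/- the length correction gave 30 higher and 8 lower, against 3300 and 3310 over all tested genes. Without Prep+/- M1 replicate 2 the count was 8 higher, against 2487 over all tested genes.

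With M2 the share of oxidative phosphorylation genes called higher was near that of all genes in both genotypes. In Prep+/- 10 rose and none fell with edgeR, where 9.35% of all tested genes rose and 9.06% fell, and the log2 fold change was negative for 4 of the 94, at a median of 0.30 against -0.010. In Prep-/- 21 rose and none fell, where 22.1% rose and 21.7% fell, at a median of 0.22. At an unadjusted p under 0.05, 1 gene fell in each genotype, and DESeq2 called none. Past the fold were 1 in Prep+/- and 11 in Prep-/-, where 12.9% and 30.2% of all tested genes passed. Atp5b was the clearest case, at 1015, 1059 and 1058 CPM in Prep+/- M2 (0.48 ± 0.087, adjusted p = 0.00080) and 906, 934 and 938 CPM in Prep-/- M2 against 392 to 437 CPM in M0 (1.18 ± 0.088, adjusted p = 2.77e-08). Uqcrc1, a core subunit of complex III, rose from 201 to 218 CPM to 289 to 298 CPM in Prep+/- (0.49 ± 0.12, adjusted p = 0.00717, and 0.0517 without Prep+/- M2 replicate 1). Ndufaf4 rose in Prep-/- from 4.60 to 7.30 CPM to 10.8 to 15.9 CPM (1.21 ± 0.20, adjusted p = 0.00015).

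More genes were called in the M2 comparison of Prep-/- without the library that stood apart, which was picked out by its high level of these genes. Without Prep-/- M0 replicate 3, 62 of 94 genes were higher and none lower with edgeR (1 at an unadjusted p under 0.05), at a median of 0.54, where 22.8% of all tested genes were higher. The length correction gave 44 higher at a median of 0.29, where 24.3% of all tested genes were higher. Both together gave 68 higher and 1 lower at 0.43, against 2989 and 2717 over all tested genes. In Prep+/- the length correction gave 13 higher and 1 lower at 0.17, against 1217 and 1282 over all tested genes.

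**Figure D5:**
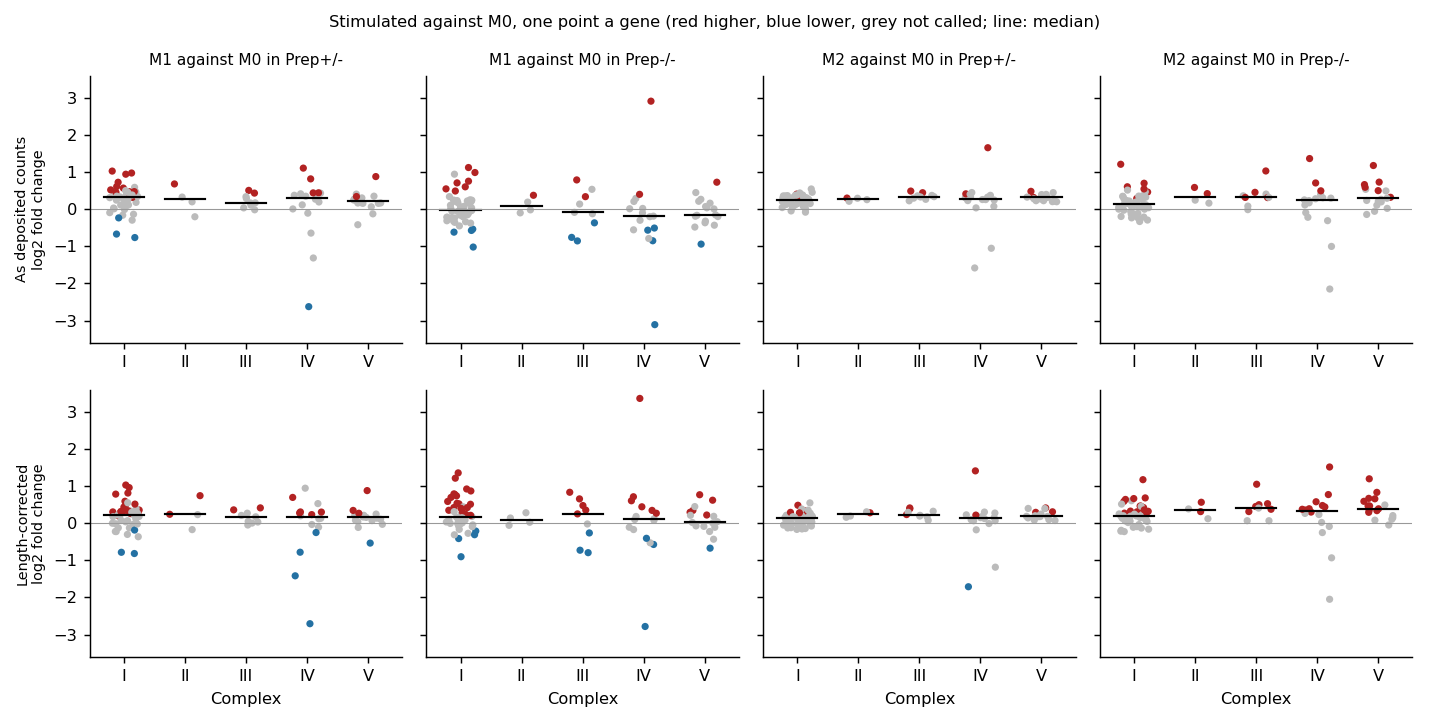
Log2 fold change of M1 and M2 against M0 within each genotype for each gene (1 point) by complex (x axis), for the counts as deposited and the length-corrected fit (rows); red is called higher, blue lower, grey not called, and the line is the median. In M2 the coloured points lie above 0 with 1 exception in the length-corrected fit of Prep+/-, while M1 shows both directions.

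The wider respiratory machinery was read from 3 lists. Of 43 tested assembly factors of all complexes, none of them taken by the name rule, M0 had 7 higher and 11 lower in Prep-/-, M1 had 4 higher and 10 lower, and M2 had 4 higher and 5 lower. Over all tested genes 24.3% were higher and 24.2% lower for M0, 19.7% higher and 16.6% lower for M1, and 11.6% higher and 13.1% lower for M2, against which the counts of the next lists are also to be read. The largest changes in M0 were those of Surf1, a complex IV assembly factor (1.03 ± 0.13, adjusted p = 1.01e-05), and Lyrm7, which serves the Rieske protein (-1.31 ± 0.40, adjusted p = 0.0124). Of 15 genes for cytochrome c and coenzyme Q synthesis, 3 were higher and 7 lower in Prep-/- M0, with Coq8a at 1.66 ± 0.24 (adjusted p = 4.00e-05) and Pdss1, which makes the coenzyme Q tail, at -2.25 ± 0.35 (adjusted p = 7.73e-05). Cycs, cytochrome c itself, rose most of this list in Prep-/- M2 against M0 (2.33 ± 0.14, adjusted p = 2.44e-09) and in M1 against M0 (2.88 ± 0.14, adjusted p = 1.88e-10). Of 13 regulators of respiratory genes, 2 were higher and 5 lower in Prep-/- M0. Ppargc1b, the coactivator PGC-1 beta, had the largest rise of the list in M2 in both genotypes (2.002 ± 0.21 in Prep+/- and 3.27 ± 0.22 in Prep-/-), and its Prep-/- effect differed between M2 and M0 by 1.27 ± 0.29 (adjusted p = 0.0139).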

How the data were processed

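Poly(A) RNA from the 18 BMDM libraries was sequenced as paired ends from a stranded kit. The authors trimmed reads with Trimmomatic 0.36, aligned them to GRCm39 with HISAT2 2.2.1.0 and counted them with StringTie. The deposited table holds whole-number counts per gene symbol, not normalized. The annotation release, the strand setting and the handling of reads with several alignments are not given in the sources used here.

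From the counts, edgeR 4.0.16 (R 4.3.3) was run with TMM scaling, 1 coefficient per group, filterByExpr and quasi-likelihood tests over all 18 libraries, with p-values adjusted by Benjamini-Hochberg over 12021 genes. A gene was called at an adjusted p under 0.05. DESeq2 1.42.0 was an alternative. The scripts were tested on simulated data for the M0 comparison. Without a length trend 5.24% of the edgeR calls were false. With a trend added, steeper than the slopes measured here, 22.1% of the calls of the uncorrected fit were false. Unchanged genes under 1000 bases then had a median log2 change of 0.286. The length correction brought these values to 5.80% and -0.00752. Library depth ran from 19068237 to 22598279 counts. The length correction used GENCODE transcripts of GRCm39 (median length per gene, a loess curve with a span of 0.3 in each library, entered as an offset), and 94 of the 97 genes, or 91 of the 94 tested, had a length. Deviations were taken on log2(CPM + 0.5). Replicate numbers were checked by correlating the deviations of same-numbered libraries from their group means. All 3 correlations passed 0.1 in Prep-/- against Prep+/- M2 (0.289 to 0.559) and in M1 against M0 of Prep-/- (0.196 to 0.31). The reported fits hold no replicate block in these comparisons either. Pairing enters only the alternatives with a block. Replicates are described as biological, and p-values measure the spread between these libraries.

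The genes, lists and tests were chosen with earlier results of these data known. Genes were named by 5 rules: the smallest p per complex and direction in each Prep comparison, every gene called there past a fold of 1.5, the 2 largest called changes per direction with a mean of at least 5 CPM in each stimulation comparison, isoform sets, and core subunits. Cox4i1 and Cox5a, nuclear-encoded subunits of complex IV, were listed with the core subunits for this rule. From each further list the largest change in either direction was named. Alternatives are in the closing section.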

Additional observations from a re-analysis of the deposited data

Results flagged for a closer look

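The Prep-/- effect differed between states in a direct test for 8 genes between M1 and M0 and for 2 between M2 and M0. Differences are on the log2 scale, as the Prep-/- effect in the stimulated state minus that in M0. Between M1 and M0 they were 0.55 for Atp5b (adjusted p = 0.00470), 0.36 for Cyc1 (adjusted p = 0.0416), 0.45 for Ndufs1 (adjusted p = 0.0188), 0.70 for Ndufaf7 (adjusted p = 0.00788), 1.81 for Cox6a2 (adjusted p = 0.0294), -0.70 for Cox7a2l (adjusted p = 0.0336), -0.80 for Ndufa6 (adjusted p = 0.0202) and -1.14 for Uqcrh (adjusted p = 0.0108). Between M2 and M0 they were 0.70 for Atp5b (adjusted p = 0.00334) and 0.59 for Cyc1 (adjusted p = 0.00772). Without Prep-/- M0 replicate 3, 10 genes were called between M1 and M0, of which 7 were among the first 8 (Cox7a2l was lost), and 4 between M2 and M0, which include both. Without each of the 18 libraries in turn, Atp5b, Ndufaf7 and Uqcrh were called every time between M1 and M0, and Atp5b and Cyc1 every time between M2 and M0. Between M1 and M0, the calls of Ndufa6 and Ndufs1 were lost without Prep+/- M1 replicate 2 (adjusted p = 0.0686 and 0.0528), that of Ndufa6 also without Prep+/- M0 replicate 3 (0.0637) and that of Ndufs1 also without Prep+/- M1 replicate 3 (0.0506). Those of Cox6a2, Cox7a2l and Cyc1 were lost without any of several libraries, at adjusted p up to 0.0786, 0.108 and 0.122.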

How the results depend on the processing

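Counts are genes higher / lower in Prep-/- against Prep+/- in M0, M1 and M2, then in M1 against M0 and M2 against M0 in Prep+/- and in Prep-/-, as reported 5 / 12, 1 / 13, 0 / 3, 21 / 4, 10 / 0, 13 / 12 and 21 / 0, and 8 and 2 for the differences M1 minus M0 and M2 minus M0. Only counts that moved by over 1.5 times are given. Shares of all tested genes are not given in this section. DESeq2 gave 24 lower in the Prep comparison of M1, 2 / 6 in that of M2, and 4 for the difference M2 minus M0. RLE scaling, no filter on low counts and the replicate block over all 18 libraries moved no count by as much; under that block the M0 comparison again gave 12 lower. In fits of the libraries compared alone, the Prep comparisons gave 2 / 6 in M0, 53 lower in M1 and 1 / 10 in M2, M1 raised 7 in Prep-/-, and M2 gave 35 / 1 in Prep+/- and raised 8 in Prep-/-. With the replicate block added there, they gave 2 / 3, 56 lower and 3 / 12, and M2 gave 67 / 1 in Prep+/- and raised 6 in Prep-/-.

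The length correction gave 31 lower in M0, 2 higher in M1 and 7 / 5 in M2, 8 lower with M1 in Prep+/-, 35 higher with M1 in Prep-/-, 1 lower with M2 in Prep+/-, 44 higher with M2 in Prep-/-, and 13 and 9 for the differences. With the block these were 31, 2, 7 / 5, 7, 34, 1, 45, 15 and 10. With the longest transcript they were 23, 2, 7 higher, 7, 27, 1, 37 and 9 for M2 minus M0. The other 3 choices were made after seeing the data. With coding length they were 26, 3, 7 / 7, 8, 30, 1, 43 / 1 and 6 for M2 minus M0. With the curve fitted to other genes, 33 were lower in M0, 2 higher in M1 and 6 / 5 in M2, 36 rose with M1 in Prep-/-, 1 fell with M2 in Prep+/-, 46 rose with M2 in Prep-/-, and the differences gave 14 and 9. Also leaving out Prep-/- M0 replicate 3 gave 52 lower in M0, 2 / 37 in M1, 8 / 12 in M2, 40 / 9 with M1 and 18 / 1 with M2 in Prep+/-, 50 with M1 and 68 / 1 with M2 in Prep-/-, and 20 and 22 for the differences, and there Cox6b1, uncalled as reported, turned to -0.20 in M0 (adjusted p = 0.0302).

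A fold over 1.5 left 3 higher in M0, 5 lower in M1, 9 higher with M1 and 1 with M2 in Prep+/-, and 8 / 7 with M1 and 11 with M2 in Prep-/-. For the difference M1 minus M0 it left 2 positive and 3 negative. Leaving out 1 of the 18 libraries gave 2 to 9 higher and 8 to 43 lower in M0, 1 to 52 lower in M1, 0 to 2 higher and 1 to 9 lower in M2, 8 to 32 higher and 3 to 5 lower with M1 and 3 to 17 higher and 0 to 1 lower with M2 in Prep+/-, 8 to 31 higher and 5 to 21 lower with M1 and 13 to 62 higher and 0 to 2 lower with M2 in Prep-/-, 4 to 16 for M1 minus M0 and 2 to 4 for M2 minus M0. The extremes at 43, 52, 9 (M2), 32, 17, 31 and 62 are those without Prep-/- M0 replicate 3. Libraries outside a comparison enter its filter, scaling and estimate of the spread. The cause of the length tilt was not tested. Of the named genes' alternative values, 2664 stayed on their side of the threshold, 85 lost the call, 94 gained it and 1 changed sign. Depth limits the least expressed isoforms, such as Cox4i2 at 0 to 1.26 CPM.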

Other observations

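Rare isoforms of complex IV moved with stimulation, though at low levels, and were picked out after their values were seen. Cox6b2, the testis form of Cox6b1, had 47, 32 and 14 reads in Prep+/- M0 and 5, 3 and 3 reads in Prep+/- M1, a log2 change of -2.63 with edgeR, and -3.11 in Prep-/-. Cox6a2 moved the other way, by 1.11 in Prep+/- and 2.92 in Prep-/- with M1. With M2 it changed by 1.66 in Prep+/- and 1.37 in Prep-/-, where 1 of the 3 M2 libraries held 82 reads against 26 and 26 in the others. Cox7a1, the muscle form of Cox7a2, was measured at 37 to 140 reads per library.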
